A study of Mus musculus with 14 samples.

Results

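The genes described here are 10 feedback and target genes of Wnt/β-catenin signaling, *Lgr5*, *Axin2*, *Wif1*, *Lef1*, *Nkd1*, *Notum*, *Sp5*, *Rnf43*, *Znrf3* and *Dkk2*, chosen by symbol among the 17702 genes of the *Lats2* experiment and the 17763 genes of the *Lats1* experiment. All 10 were measured in the *Lats1* experiment and 9 in the *Lats2* experiment, where *Sp5* was not analysed. RNA was sequenced from 14 whole mammary tumors. The tumors of the *Lats1* experiment came from mice of 3 months of age. The authors state that the tumors of the *Lats2* experiment each came from a different mouse. For the *Lats1* experiment this is not given in the sources used here. The *Lats2* experiment compared 4 *Lats2*-CKO PyMT tumors (1 adenoma and 3 carcinomas) with 3 WT-PyMT littermate tumors (2 adenomas and 1 carcinoma). The *Lats1* experiment compared 4 *Lats1*-CKO PyMT tumors (1 adenoma, 2 carcinomas and 1 adenosquamous carcinoma) with 3 WT-PyMT littermate tumors of its own (2 adenomas and 1 carcinoma). Every mouse of the 4 groups carried the polyomavirus middle T antigen (PyMT) under the MMTV promoter, which is active mainly in mammary epithelium. In CKO mice, MMTV-driven Cre deleted exon 5 of *Lats2* or exon 4 of *Lats1*, so that stromal cells of a tumor, and epithelial cells that Cre missed, keep the gene. LATS1 and LATS2 are paralogous kinases of the Hippo pathway, and the comparisons ask how the loss of each alters expression in these tumors.

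In Wnt signaling, a secreted ligand binds Frizzled and LRP receptors, the cytoplasmic destruction complex stops degrading β-catenin, and β-catenin enters the nucleus and activates genes together with TCF/LEF factors. Many of the activated genes restrain the pathway again at the ligand, at the receptor or in the cytoplasm, so that their mRNA is widely read as a sign of signaling. In the mammary gland the pathway is known for its part in basal stem cells, and in skin for driving the hair follicle.

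By role, *Lgr5* encodes a receptor of R-spondins, the secreted proteins that strengthen Wnt signaling, and lies on chromosome 10 of GRCm38 from 115450311 to 115587780. *Wif1* (chromosome 10, 121033960 to 121100650), *Dkk2* (chromosome 3, 132085292 to 132180304) and *Notum* (chromosome 11, 120653788 to 120661175) encode secreted proteins that bind Wnt, bind its LRP coreceptors and remove the lipid from Wnt. *Axin2* (chromosome 11, 108920349 to 108950783) encodes a scaffold of the destruction complex, and *Nkd1* (chromosome 8, 88521354 to 88594884) a protein that binds Dishevelled. *Rnf43* (chromosome 11, 87662722 to 87735539) and *Znrf3* (chromosome 11, 5276324 to 5444847) encode membrane ubiquitin ligases that remove Frizzled from the cell surface. *Lef1* (chromosome 3, 131110471 to 131224356) encodes a nuclear partner of β-catenin that lymphocytes also use, and *Sp5* (chromosome 2, 70474923 to 70477729) a transcription factor.

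The 250 bases before the start are shown for *Axin2*, *Nkd1*, *Dkk2* and *Sp5*, because these genes were highest by far in the same tumor, described below. The sequences are those of RefSeq on GRCm38.p6, on the plus strand, from chr11:108920099-108920348, chr8:88527383-88527632, chr3:132085042-132085291 and chr2:70474673-70474922. The RefSeq start of *Nkd1* lies inside the gene as GENCODE places it. Capitals mark matches to the TCF/LEF letters CTTTGNN, with A or T at each N, on either strand.
Axin2: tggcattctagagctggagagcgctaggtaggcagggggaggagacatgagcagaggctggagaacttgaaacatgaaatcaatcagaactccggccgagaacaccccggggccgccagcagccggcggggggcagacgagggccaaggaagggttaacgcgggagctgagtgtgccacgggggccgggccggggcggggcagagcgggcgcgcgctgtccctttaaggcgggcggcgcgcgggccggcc
Nkd1: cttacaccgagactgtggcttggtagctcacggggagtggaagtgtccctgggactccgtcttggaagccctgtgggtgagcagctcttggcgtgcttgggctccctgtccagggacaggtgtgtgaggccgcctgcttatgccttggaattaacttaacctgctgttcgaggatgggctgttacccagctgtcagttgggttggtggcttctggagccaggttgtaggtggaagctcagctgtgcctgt
Dkk2: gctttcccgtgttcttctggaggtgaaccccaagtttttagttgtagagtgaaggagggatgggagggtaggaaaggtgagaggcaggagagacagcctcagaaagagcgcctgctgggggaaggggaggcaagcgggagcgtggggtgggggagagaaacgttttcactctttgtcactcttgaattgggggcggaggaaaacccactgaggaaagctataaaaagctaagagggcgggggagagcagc
Sp5: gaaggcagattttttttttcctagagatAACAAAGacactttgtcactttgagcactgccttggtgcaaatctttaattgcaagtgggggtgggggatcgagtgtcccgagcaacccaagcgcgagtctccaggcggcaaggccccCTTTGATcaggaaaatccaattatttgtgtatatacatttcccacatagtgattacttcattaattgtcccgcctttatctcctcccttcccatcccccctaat
The *Sp5* window held 2 matches, AACAAAG on the opposite strand starting 222 bases before the start and CTTTGAT on the same strand starting 104 bases before it. The windows of *Axin2*, *Nkd1* and *Dkk2* held none. RefSeq windows were found for 7 of the 10 genes, and 2 of the 7, *Sp5* and 1 of the 4 windows of *Lef1*, held a match, and over the 27025 genes with a window 16.8% held a match in any of theirs. Of all 32851 windows of this length 14.8% held at least 1 match, and 1.43% held 2 or more. A match describes the letters only.

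The libraries held 18593864 to 31909282 counts. Values are CPM, counts scaled to a common library total with TMM within each experiment. *Lats1* averaged 35.6 ± 2.43 CPM in *Lats1*-CKO and 120 ± 10.5 CPM in WT-PyMT tumors (SD, n = 4 and n = 3), a called change (log2 fold change -1.75, standard error [SE] 0.09, adjusted p = 0.00364 by edgeR's quasi-likelihood test with Benjamini-Hochberg adjustment, threshold 0.05). *Lats2* averaged 16.8 ± 10.9 CPM in *Lats2*-CKO and 35.1 ± 16.1 CPM in WT-PyMT tumors (n = 4 and n = 3), which did not pass (log2 fold change -1.06, SE 0.52, edgeR adjusted p = 0.688). The library labelled *Lats2*-CKO 1 had 32.5 CPM of *Lats2*, within the WT-PyMT range of 23.0 to 53.3 CPM. Fold changes of the 10 genes in *Lats2*-CKO that rest on this library are therefore also given without it. The differences between the genotypes are not given without this library alone. Mammary luminal markers (8 of 8 measured) summed to 3091 to 5925 CPM in 13 libraries and to 1219 CPM in WT-PyMT 14. The lymphocyte markers averaged 7.28 log2 CPM in WT-PyMT 14 and 5.43 log2 CPM in WT-PyMT 22, against -1.43 to 1.42 log2 CPM in the other 12. In whole tumors, fewer cells of a type and less RNA per cell cannot be told apart.

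Per kilobase of exon, *Rnf43* and *Znrf3* were the most abundant of the 10 genes, with medians over the 14 libraries of 14.1 and 3.81 CPM per kb. *Wif1* (2.57), *Axin2* (1.04), *Nkd1* (0.524), *Dkk2* (0.293), *Lgr5* (0.235) and *Lef1* (0.0818) followed, and *Notum* (0.0333 CPM per kb) and *Sp5* (0, over 7 libraries) were near or at 0 in most tumors. The ranges of every pair of neighbors in this order overlapped. *Rnf43* was at 26.9 CPM in WT-PyMT 14 and 76.3 to 121 CPM in the other 13 libraries, whereas the lowest and the highest library of *Lef1* were at 0.159 and 222 CPM.

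**Figure D1:**
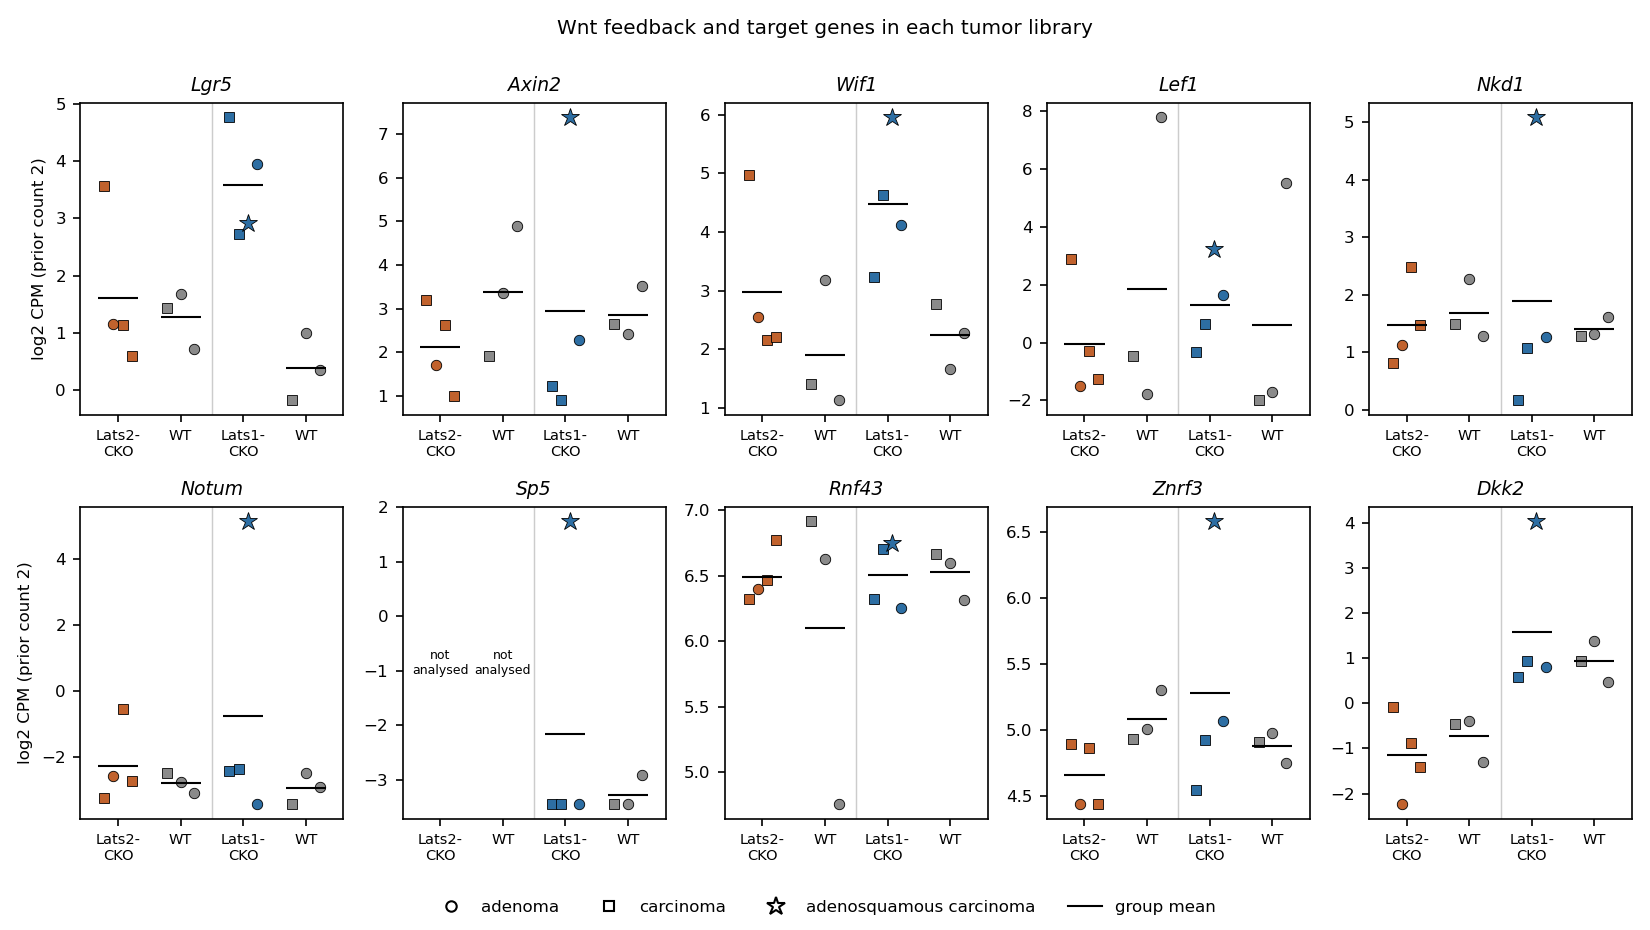
log2 CPM (vertical axis, prior count 2) of the 10 genes in each library, grouped along the horizontal axis as Lats2-CKO, its WT-PyMT littermates, Lats1-CKO and its WT-PyMT littermates, with the shape giving the histology and the line the group mean; points are spread sideways only to be seen. The star, Lats1-CKO 21, stands above all other libraries for Axin2, Wif1, Nkd1, Notum, Sp5, Znrf3 and Dkk2 but not for Lgr5, Lef1 and Rnf43.

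None of the 9 genes passed the test in the *Lats2* comparison and none of the 10 in the *Lats1* comparison (edgeR, adjusted p from 0.688 to 0.946 and from 0.184 to 0.993), where edgeR called 0% and 0.0225% of all genes. At an unadjusted p under 0.05 there were 0 of 9 in the *Lats2* comparison and 3 of 10 in the *Lats1* comparison (*Lgr5*, *Wif1* and *Notum*), against 7.08% and 11.3% of all genes. DESeq2 called 0 of 9 in *Lats2*-CKO and 2 of 10 in *Lats1*-CKO, *Lgr5* and *Wif1*, both higher, against 0.78% and 3.31% of all genes, and gave no adjusted p for 3 and 6 of them. The values of CKO and WT-PyMT tumors did not overlap for 1 of 9 genes in *Lats2*-CKO (*Znrf3*, lower) and 2 of 10 in *Lats1*-CKO (*Lgr5* and *Wif1*, higher), against 3.69% and 11.3% of all genes. The median log2 fold change was -0.13 in *Lats2*-CKO and 2.23 in *Lats1*-CKO, against -0.0028 and -0.0029 over all genes. Over the 8 genes without *Notum* and *Sp5*, whose counts were too few to set a fold, the median was -0.22 in *Lats2*-CKO and 1.71 in *Lats1*-CKO. Without the adenosquamous carcinoma *Lats1*-CKO 21, the median of these 8 genes in *Lats1*-CKO was -0.15, with 2 higher and 6 lower by fold change.

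*Lgr5* was higher in all 4 *Lats1*-CKO tumors than in any WT-PyMT littermate tumor. Its level was 15.3, 6.49, 27.1 and 7.43 CPM in *Lats1*-CKO tumors 27, 18, 14 and 21, against 0.793, 1.91 and 1.181 CPM in WT-PyMT tumors 17, 20 and 22. The CKO values spread over a wide range of their own, and the adenosquamous carcinoma was not the highest. The log2 fold change was 3.44 (SE 0.64), with an adjusted p of 0.184 from edgeR and 2.16e-06 from DESeq2. Across the 15 alternatives the fold change stayed between 2.92 and 3.85 on the log2 scale and the adjusted p ran from 2.16e-06 to 0.783. Without *Lats1*-CKO 21 it was 3.65 (SE 0.62, edgeR adjusted p = 0.0985). The summed basal and myoepithelial markers (10 of 10 measured) were 364 to 1713 CPM in *Lats1*-CKO and 434 to 569 CPM in WT-PyMT tumors, and the adipocyte markers 15.5 to 665 CPM against 691 to 1595 CPM, whose part in the difference was not tested.

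In *Lats2*-CKO tumors 1, 7, 16 and 8, *Lgr5* was at 11.8, 2.17, 1.44 and 2.14 CPM, against 1.58, 3.14 and 2.64 CPM in WT-PyMT tumors 14, 2 and 1. Only the library labelled *Lats2*-CKO 1 lay above the WT-PyMT range. The log2 fold change was 0.83 (SE 0.81) and became -0.36 (SE 0.46) without that library. The log2 change in *Lats1*-CKO exceeded that in *Lats2*-CKO by 2.64 (SE 1.05, unadjusted p = 0.0271 and adjusted p = 0.913 from edgeR), so that a difference between the genotypes did not pass the test.

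*Wif1*, the Wnt-binding antagonist, showed the same arrangement of groups as *Lgr5* in the *Lats1* experiment. It was at 17.2, 24.6, 9.32 and 61.9 CPM in *Lats1*-CKO tumors 27, 18, 14 and 21, against 6.70, 3.09 and 4.77 CPM in WT-PyMT tumors 17, 20 and 22. The groups did not overlap, and the adenosquamous carcinoma was 2.52 times the next library. The log2 fold change was 2.54 (SE 0.68, edgeR adjusted p = 0.285 and 0.00231 from DESeq2, with 0.00231 to 0.783 over 15 alternatives), and 1.81 without *Lats1*-CKO 21. In the *Lats2* experiment it was at 31.4, 5.77, 4.57 and 4.41 CPM in CKO tumors 1, 7, 16 and 8, against 2.11, 8.96 and 2.58 CPM in WT-PyMT tumors 14, 2 and 1. Here the groups overlapped, and the log2 fold change of 1.34 (SE 0.92) was 0.11 without the library labelled *Lats2*-CKO 1. The change minus change between the genotypes was 1.22 (SE 1.17, edgeR adjusted p = 0.913).

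*Axin2*, the destruction complex scaffold, had fold changes of opposite sign in the 2 experiments, neither of which passed the test. In the *Lats1* experiment its level was 4.74, 1.77 and 2.25 CPM in *Lats1*-CKO tumors 27, 18 and 14 and 167 CPM in tumor 21, against 6.15, 5.29 and 11.4 CPM in WT-PyMT tumors 17, 20 and 22. Thus 3 of the 4 CKO tumors lay below all WT-PyMT tumors and the adenosquamous carcinoma far above them. The log2 fold change was 2.53 (SE 1.69) with all libraries and -1.38 (SE 0.49, edgeR adjusted p = 0.318, the lowest over its 15 alternatives, whose highest was 0.936) without tumor 21. In the *Lats2* experiment the level was 9.05, 3.18, 1.93 and 6.11 CPM in CKO tumors 1, 7, 16 and 8, against 29.6, 10.3 and 3.67 CPM in WT-PyMT tumors 14, 2 and 1. The groups overlapped, and the log2 fold change was -1.51 (SE 0.77, edgeR adjusted p = 0.689), or -0.46 without WT-PyMT 14. The 2 WT-PyMT adenomas of that experiment, 14 and 2, also had the most adipocyte RNA, with marker sums of 5340 and 6477 CPM, against 23.9 to 357 CPM in the CKO tumors and 140 CPM in WT-PyMT 1, whose part was not tested. The change minus change was 4.09 (SE 1.96, edgeR adjusted p = 0.913), and -0.09 without *Lats1*-CKO 21, the library labelled *Lats2*-CKO 1, WT-PyMT 22 and WT-PyMT 14.

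*Nkd1* was at 2.32, 2.03 and 1.03 CPM in *Lats1*-CKO tumors 27, 18 and 14 and at 33.9 CPM in tumor 21, against 2.34, 2.41 and 2.97 CPM in WT-PyMT tumors. As for *Axin2*, only the adenosquamous carcinoma was above the WT-PyMT range, and the log2 fold change of 1.93 (SE 1.25) was -0.52 (SE 0.39) without it. In the *Lats2* experiment *Nkd1* was at 1.68 to 5.54 CPM in CKO tumors and 2.36 to 4.77 CPM in WT-PyMT tumors, with a log2 fold change of -0.13 (SE 0.52).

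The Frizzled ligases differed from these genes in level and spread. *Rnf43* was at 76.3 to 108 CPM in *Lats1*-CKO and 79.7 to 101 CPM in WT-PyMT tumors, with a log2 fold change of -0.01 (SE 0.16). *Rnf43* in the *Lats2* experiment was at 80.1 to 109 CPM in CKO tumors, against 99.0 and 121 CPM in WT-PyMT tumors 2 and 1 and 26.9 CPM in WT-PyMT 14. Its log2 fold change there was 0.14 (SE 0.45), or -0.28 (SE 0.17) without WT-PyMT 14. *Znrf3* was at 33.4, 30.2 and 23.2 CPM in *Lats1*-CKO tumors 27, 18 and 14 and at 95.7 CPM in tumor 21, against 26.8 to 31.3 CPM in WT-PyMT tumors. Its log2 fold change of 0.64 (SE 0.48) was -0.02 without tumor 21. *Znrf3* in *Lats2*-CKO tumors 1, 7, 16 and 8 was at 29.6, 21.5, 21.6 and 29.0 CPM, against 39.4, 32.1 and 30.4 CPM in WT-PyMT tumors 14, 2 and 1. All CKO values were below all WT-PyMT values, by a log2 fold change of -0.42 (SE 0.20, edgeR adjusted p = 0.688) that lay between -0.55 and -0.30 over 15 alternatives.

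*Dkk2* was at 1.67, 1.83 and 1.41 CPM in *Lats1*-CKO tumors 27, 18 and 14 and at 16.4 CPM in tumor 21, against 1.82, 2.54 and 1.30 CPM in WT-PyMT tumors 17, 20 and 22. Its log2 fold change of 1.49 (SE 0.99) was -0.21 without tumor 21. In the *Lats2* experiment *Dkk2* was at 0.138 to 0.871 CPM in CKO tumors and 0.332 to 0.686 CPM in WT-PyMT tumors, on 3 to 28 counts a library. *Notum*, the Wnt lipase, had 0, 2, 2 and 693 counts in *Lats1*-CKO tumors 27, 18, 14 and 21, against 0, 2 and 1 counts in WT-PyMT tumors 17, 20 and 22, and in tumor 21 that was 35.7 CPM. In the *Lats1* comparison edgeR gave it an adjusted p of 0.431, and 0.0447 before adjustment. *Notum* had 1, 2, 2 and 18 counts in *Lats2*-CKO tumors 1, 7, 16 and 8, against 1, 2 and 3 counts in WT-PyMT tumors 14, 2 and 1. *Sp5* had 63 counts (3.25 CPM) in *Lats1*-CKO 21 and 0 in the other 3 CKO tumors, against 0, 0 and 1 counts in WT-PyMT tumors. No fold is given for *Notum* and *Sp5*, whose counts outside tumor 21 are too few to set one.

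*Lef1* was highest in the lymphocyte-rich tumors WT-PyMT 14 and WT-PyMT 22. Next in lymphocyte mean were *Lats2*-CKO 16 (1.42 log2 CPM) and *Lats1*-CKO 27 (1.275 log2 CPM), which had 0.340 and 3.03 CPM of *Lef1*. In the *Lats2* experiment *Lef1* was at 7.37, 0.277, 0.340 and 0.735 CPM in *Lats2*-CKO tumors 1, 7, 16 and 8, against 222, 0.217 and 0.653 CPM in WT-PyMT tumors 14, 2 and 1. In the *Lats1* experiment it was at 3.03, 1.47, 0.703 and 9.39 CPM in CKO tumors 27, 18, 14 and 21, against 0.159, 0.212 and 45.7 CPM in WT-PyMT tumors 17, 20 and 22. The highest value of each experiment was in the WT-PyMT tumor with most lymphocyte RNA, where *Cd3e* of T cells was at 250 and 59.1 CPM (0.339 to 7.60 CPM in the other 12 libraries). *Tcf7*, another TCF/LEF factor of T cells, was at 551 CPM in WT-PyMT 14 and 118 CPM in WT-PyMT 22. It was at 5.80 to 80.5 CPM in the other 12, with the 80.5 CPM in *Lats1*-CKO 21. The log2 fold change of *Lef1* was -5.07 (SE 2.29) in *Lats2*-CKO and 2.32 (SE 1.62) without WT-PyMT 14, or 0.0862 without both WT-PyMT 14 and the library labelled *Lats2*-CKO 1. In *Lats1*-CKO it was -2.07 (SE 1.75), and 4.26 (edgeR adjusted p = 0.494, with 0.246 to 0.990 over 15 alternatives) without WT-PyMT 22. With the lymphocyte mean as a covariate the values were 1.92 and 3.48. All 4 *Lats1*-CKO tumors were above the WT-PyMT tumors 17 and 20, and their lymphocyte means were -1.43 to 1.275 log2 CPM. The library labelled *Lats2*-CKO 1 and *Lats1*-CKO 21 held the most *Lef1* outside the lymphocyte-rich tumors, with lymphocyte means of -0.84 and -1.03 log2 CPM.

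**Figure D2:**
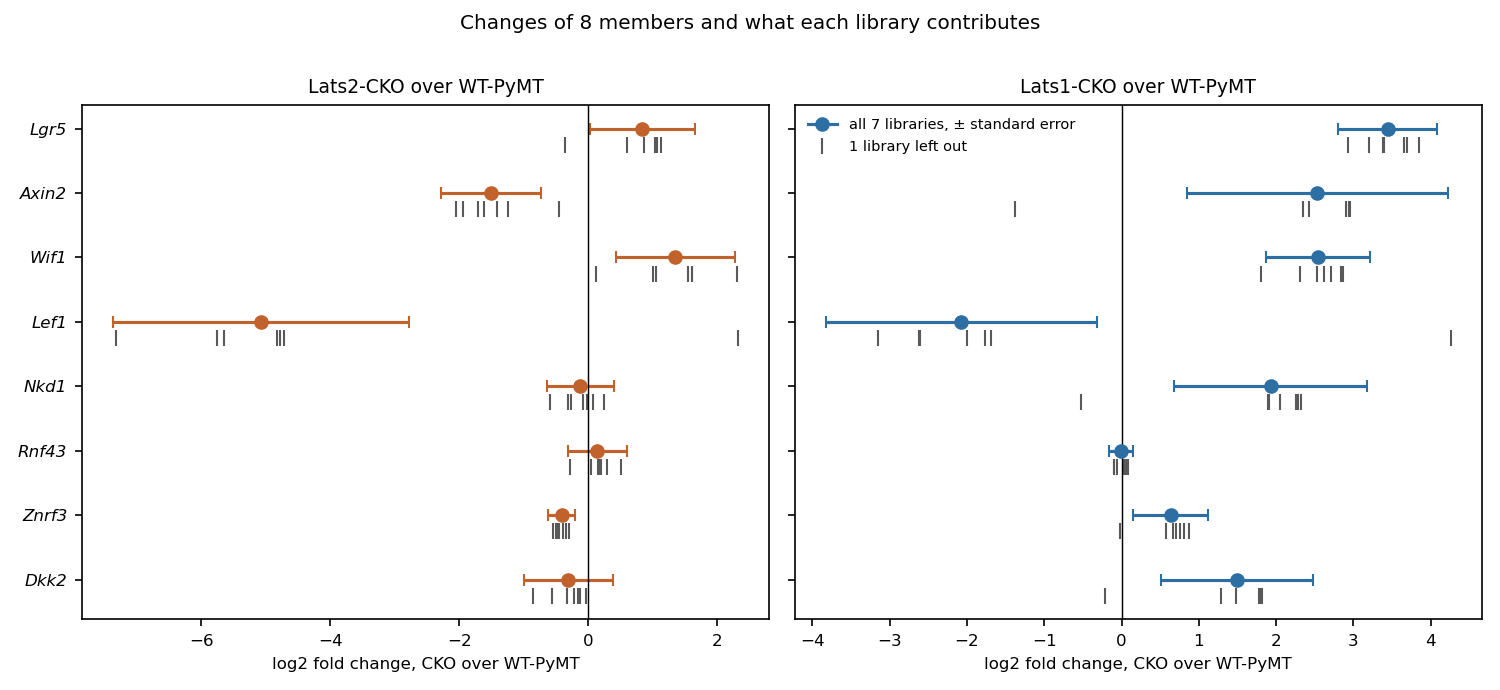
log2 fold change of CKO over WT-PyMT tumors (horizontal axis) for 8 genes in the Lats2 experiment on the left and the Lats1 experiment on the right; dots with bars give the edgeR value with all 7 libraries and its SE, ticks the value with 1 library left out. Lgr5 in Lats1-CKO kept values of 2.92 or more, while 1 tick for Axin2, Nkd1, Znrf3, Dkk2 and Lef1 in Lats1-CKO lies on the other side of 0.

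The adenosquamous carcinoma *Lats1*-CKO 21 set most of these values. At least 3-fold above each of the other 6 libraries of the experiment were 5 of the 10 genes, *Axin2* (14.7-fold over the next library), *Nkd1* (11.4-fold), *Dkk2* (6.46-fold), *Notum* and *Sp5*, against 2.3% of all genes. *Znrf3* was 2.87-fold and *Wif1* 2.52-fold above the next library, *Rnf43* 1.03-fold, and *Lgr5* and *Lef1* were below the highest of the others. With a single tumor of this histology these are values of 1 library without a replicate. *Sp5* had 63 counts in this tumor and 1 in the other libraries together, fewer than the lowest row sum of 6 counts. It was analysed only because of this tumor, so that its highest value was bound to lie there. The place of *Sp5* among the 5 genes was set by this filter, and it is not to be read against the 2.3% of all genes.

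Against 2.3% of all genes, 12 of the 104 other Wnt pathway genes measured in this experiment also reached 3-fold in the tumor. These were 6 of 18 Wnt ligands, *Wnt3*, *Wnt6*, *Wnt8a*, *Wnt10a*, *Wnt10b* and *Wnt16*, the receptor *Fzd10*, the antagonists *Apcdd1*, *Dkk4* and *Kremen2*, *Porcn*, whose product adds the lipid that Wnt ligands carry, and the homeobox gene *Dlx3*, which is also in the hair follicle list. These 12 were chosen after their values were seen. *Wnt10b* was at 8.56 CPM in tumor 21 and at 0.202, 0.304 and 0.750 CPM in the other *Lats1*-CKO tumors, against 0.119 to 1.181 CPM in WT-PyMT tumors. *Apcdd1*, a membrane inhibitor of Wnt, was at 109 CPM in tumor 21 and 4.41 to 8.63 CPM in the other *Lats1*-CKO tumors, against 2.46 to 6.44 CPM in WT-PyMT tumors. *Dkk4* had 29 counts in tumor 21 and 0 in the other 6 libraries, so that it too was analysed only because of this tumor. The destruction complex and β-catenin list (16 genes), the list of TCF/LEF factors and cofactors (12 genes) and the R-spondins (2 genes) had no gene past 3-fold.

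**Figure D3:**
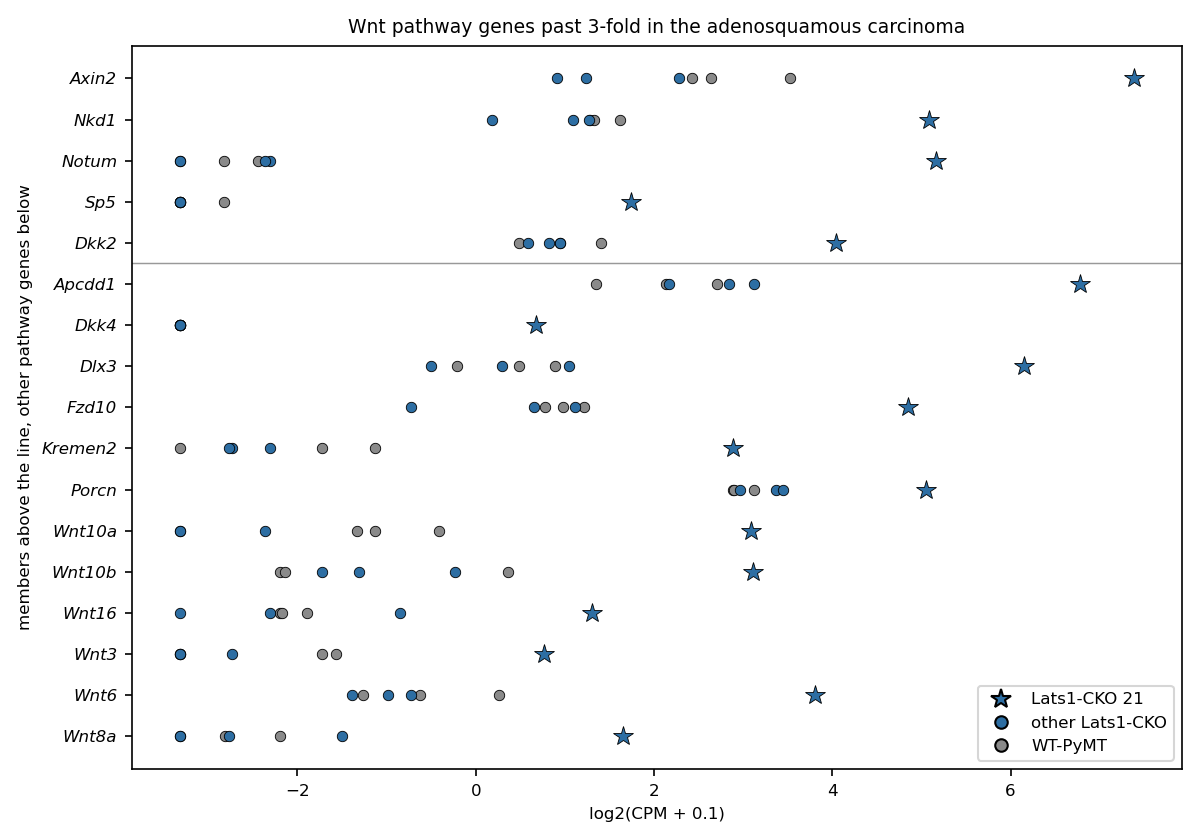
log2(CPM + 0.1) (horizontal axis) of the 5 members and 12 other Wnt pathway genes at least 3-fold higher in the adenosquamous carcinoma, in the 7 libraries of the Lats1 experiment. The star, Lats1-CKO 21, is to the right of every other point in each row, and points at the left edge are libraries with 0 counts. Sp5 and Dkk4 were analysed only because of this tumor.

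The same tumor held RNA of keratinizing epithelium and of the hair follicle. Squamous markers averaged 4.59 log2 CPM there (11 of 12 measured, 8 past 3-fold), against -1.88 to 0.95 log2 CPM in the other 6 libraries, with *Krt6a* at 141 CPM against at most 1.269 CPM. Hair follicle markers averaged 4.46 log2 CPM (15 of 15 measured, 11 past 3-fold), against -1.25 to -0.78 log2 CPM, with *Krt73* of the inner root sheath at 307 CPM against at most 0.0793 CPM. Over all genes of the experiment 2.3% were past 3-fold in this tumor. Skeletal muscle markers summed to 873 CPM there, against 21.96 to 271 CPM in the other 6 libraries of the experiment. The part of skin, muscle or squamous tumor cells in the Wnt values of this library was not tested, and its histology, these cells and its Wnt values cannot be told apart in 1 tumor. *Lats2*-CKO 7, the other tumor with hair follicle and muscle RNA (1.997 log2 CPM and a sum of 2330 CPM), had 3.18 CPM of *Axin2*, 2.12 CPM of *Nkd1*, 0.138 CPM of *Dkk2* and 2 counts of *Notum*. Its hair follicle mean was below the 4.46 log2 CPM of *Lats1*-CKO 21. Its squamous mean was -0.57 log2 CPM (9 of 12 markers measured), against 4.59 log2 CPM in that tumor. The tumors are of different experiments, and what sets their Wnt values apart was not tested.

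**Figure D4:**
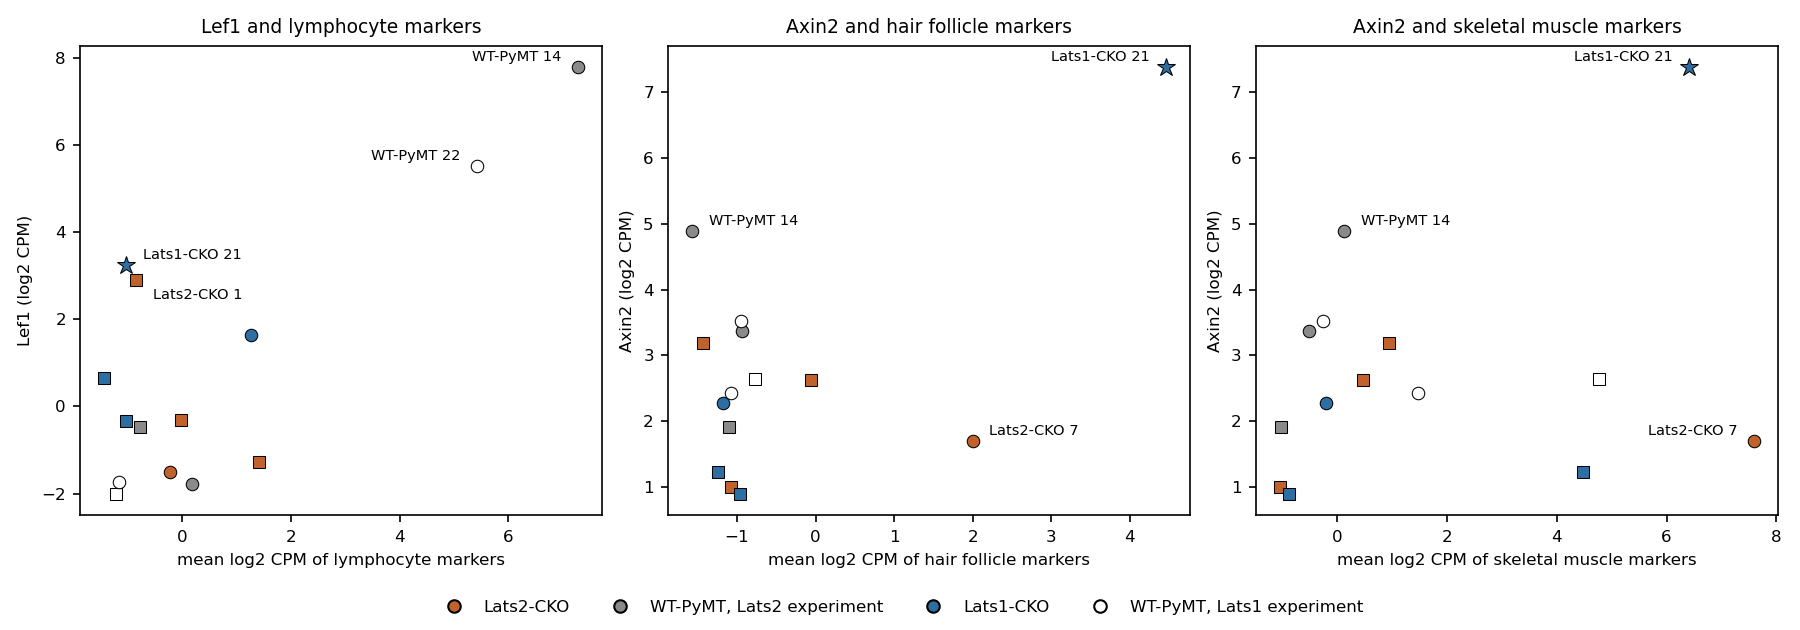
Level of Lef1 (left panel) and Axin2 (middle and right panels) in log2 CPM, against the mean log2 CPM of lymphocyte, hair follicle and skeletal muscle markers, over 14 libraries; circles are adenomas, squares carcinomas, the star the adenosquamous carcinoma and colors the groups. Lef1 was highest in the 2 lymphocyte-rich WT-PyMT tumors, and Axin2 in Lats1-CKO 21.

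The difference between the genotypes was tested over 17232 genes in both experiments, of which edgeR called 0.0174% and DESeq2 0.0929%. None of the 9 genes was called by either, and 1, *Lgr5*, had an unadjusted p under 0.05. The *Lats1*-CKO change exceeded the *Lats2*-CKO change for 8 of the 9, *Notum* among them and *Rnf43* the exception, with a median of 2.09 against 0.07 over all genes on the log2 scale, or 1.96 over the 8 genes without *Notum*. These values rest in part on *Lats1*-CKO 21, since without it the excess was 0.21 for *Axin2*, 0.47 for *Wif1* and 2.83 for *Lgr5*. Carcinomas, the adenosquamous tumor counted among them, were compared with adenomas over the 14 tumors with the group as a covariate, where edgeR called 0% of all genes (before adjustment 238 had p under 0.05 with higher and 375 with lower values, and DESeq2 called 44) and none of the 9 members (0 with an unadjusted p under 0.05, 0 by DESeq2, which gave 5 no adjusted p). The smallest adjusted p was 0.928, and the log2 differences of the 8 genes without *Notum* ran from -2.69 (SE 3.98) for *Lef1* to 1.05 (SE 0.76) for *Dkk2*, with 0.08 (SE 0.64) for *Lgr5* and 0.33 (SE 1.498) for *Axin2*.

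To see whether the genes varied together, each was correlated with *Axin2* in log2 CPM. Over 14 libraries, *Znrf3* (r = 0.880, p = 0.00044, adjusted p = 0.00396 over 9 relations; rho = 0.534, p = 0.0524, adjusted p = 0.189) and *Nkd1* (r = 0.772, p = 0.01, adjusted p = 0.045; rho = 0.517, p = 0.0629, adjusted p = 0.189) passed by Pearson's r and not by Spearman's rho in two-sided permutation tests. Without the 2 libraries farthest from the median of *Axin2*, *Lats1*-CKO 21 and WT-PyMT 14, r was 0.488 for *Znrf3* and 0.454 for *Nkd1* (permutation p = 0.108 and p = 0.142, adjusted p = 0.487 for both). Neither relation passed without those tumors. Within the *Lats2* experiment *Znrf3* had r = 0.900 (exact permutation p = 0.00357, adjusted p = 0.0286) and rho = 0.857 (exact permutation p = 0.0238, adjusted p = 0.191), and *Nkd1* had r = 0.0103. Within the *Lats1* experiment r was 0.900 for *Znrf3* and 0.961 for *Nkd1* (exact permutation p = 0.0564 and p = 0.00556, adjusted p = 0.169 and p = 0.05). Their rho there was 0.286 and 0.929 (exact permutation p = 0.556 and p = 0.00675, adjusted p = 0.917 and p = 0.0607). *Lgr5* had r = -0.04 and rho = -0.19 with *Axin2* over 14 libraries (permutation p = 0.907 and p = 0.524, adjusted p = 0.907 and p = 0.674), with r = 0.18 and r = -0.13 within the *Lats2* and *Lats1* experiments.

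The genes most like *Axin2* over the 14 libraries, among 13454 genes averaging 1 CPM or more in each experiment and after each experiment's mean was subtracted, were *Nuak1* (r = 0.970), *Hk2* (0.937), *Gas7* (0.910), *Igf2bp2* (0.905) and *Nrp2* (0.897). All 5 were highest in *Lats1*-CKO 21, and r was 0.848 to 0.928 over the 13 libraries without it. Those most like *Lgr5* were *Sox11* (0.910), *Tbx15* (0.897), *Med24* (0.883), *Fgfr3* (0.879) and *Nbn* (0.877), with 0.875 to 0.911 without *Lats1*-CKO 21. For both genes, the mean subtracted for the *Lats1* experiment still included *Lats1*-CKO 21. The r values without that tumor are therefore not free of it, and the genes were chosen on all 14 libraries. All of these values describe likeness across libraries only.

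The rest of the pathway was described with 8 lists holding 117 genes. Of the 104 measured in each experiment none was called by edgeR. In *Lats2*-CKO 70 were higher and 34 lower by fold change, with a median log2 fold change of 0.18, against -0.0028 over all genes. Of these, 1 and 4 had an unadjusted p under 0.05 (4.81%, against 7.08% of all genes) and none was called by DESeq2 (0.78% of all genes). In *Lats1*-CKO 71 were higher and 33 lower, with a median of 0.22, against -0.0029 over all genes. Of these, 14 and 3 had an unadjusted p under 0.05 (16.3%, against 11.3% of all genes) and 4 were called by DESeq2, all higher (3.85%, against 3.31% of all genes).

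The lists of Wnt ligands, Wnt secretion and receptors held 7 of those 17 genes. *Wls*, the carrier that brings Wnt to the cell surface, was at 169, 173, 165 and 194 CPM in *Lats1*-CKO tumors 27, 18, 14 and 21, against 133, 118 and 110 CPM in WT-PyMT tumors 17, 20 and 22. The groups did not overlap, with a log2 fold change of 0.54 (SE 0.10, edgeR adjusted p = 0.184 and 0.000183 from DESeq2). *Wnt5b*, a ligand best known outside the β-catenin branch, was at 140, 173, 116 and 80.8 CPM in *Lats1*-CKO tumors, against 70.8, 65.3 and 38.5 CPM in WT-PyMT tumors, with a log2 fold change of 1.13 (SE 0.30, edgeR adjusted p = 0.290 and 0.0115 from DESeq2). *Wnt7b* had a log2 fold change of 1.28 (SE 0.45), *Lgr4*, the R-spondin receptor related to *Lgr5*, of 0.76 (SE 0.24), and *Fzd2* of 0.44 (SE 0.16). The other 2 of the 7, named after their values were seen, were the coreceptor *Lrp5* at 0.28 (SE 0.11) and the ligand *Wnt4*, lower by fold change at -1.69 (SE 0.70, edgeR adjusted p = 0.430). In *Lats2*-CKO, where none of these genes passed either, the log2 fold change was 0.48 (SE 0.33) for *Wls*, 1.12 (SE 0.42) for *Wnt5b*, 0.75 (SE 0.48) for *Wnt7b*, 0.76 (SE 0.44) for *Lgr4*, 0.54 (SE 0.48) for *Fzd2*, 0.67 (SE 0.54) for *Lrp5* and -1.16 (SE 1.11) for *Wnt4*. WT-PyMT 14 was the lowest library there for *Wls* (66.5 CPM), *Wnt5b* (16.3 CPM), *Wnt7b* (3.65 CPM), *Lgr4* (23.0 CPM) and *Fzd2* (4.64 CPM). WT-PyMT tumors 2 and 1 had 153 and 167 CPM of *Wls* and 75.7 and 68.8 CPM of *Lgr4*. The CKO tumors had 143 to 224 CPM and 69.3 to 140 CPM. Among the genes so listed, only *Wnt5b* had groups without overlap. Values without WT-PyMT 14 were not computed for these genes. No difference between the genotypes passed the test for these genes, with an excess in *Lats1*-CKO of 0.0921 (SE 0.36) for *Wls*, 0.0354 (SE 0.54) for *Wnt5b* and 0.0268 (SE 0.52) for *Lgr4* (smallest edgeR adjusted p of the 7 = 0.914). Of 17 receptors and coreceptors 16 were higher by fold change in *Lats1*-CKO and 14 in *Lats2*-CKO, with medians of 0.44 and 0.47. The medians over all genes were -0.0029 and -0.0028, so that at least as many of all genes were lower as higher. The list holds *Lgr4* and *Fzd2*, which were lowest in WT-PyMT 14, and its count without that library was not made.

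Inside the cell, *Ctnnb1*, which encodes β-catenin, was at 985, 1045, 1030 and 1165 CPM in *Lats1*-CKO tumors, against 901, 870 and 807 CPM in WT-PyMT tumors (log2 fold change 0.30, SE 0.11, edgeR adjusted p = 0.402 and 0.0328 from DESeq2). *Tnks2*, which encodes a tankyrase that marks Axin for degradation, differed by 0.16 (SE 0.07, edgeR adjusted p = 0.459 and 0.0367 from DESeq2). *Tle4*, a corepressor of TCF/LEF, had a log2 fold change of -0.47 (SE 0.16, edgeR adjusted p = 0.393). In *Lats2*-CKO the values were 0.35 (SE 0.30) for *Ctnnb1*, 0.11 (SE 0.14) for *Tnks2* and -0.63 (SE 0.37) for *Tle4*, none past the test. The excess in *Lats1*-CKO was -0.0198 (SE 0.30), 0.0925 (SE 0.13) and 0.20 (SE 0.43) in the same order of genes (edgeR adjusted p = 0.919 or more). In WT-PyMT 14 and the library labelled *Lats2*-CKO 1, *Ctnnb1* was at 554 and 1368 CPM and *Tle4* at 85.9 and 20.9 CPM. The other libraries of that experiment had 813 to 940 CPM of *Ctnnb1* and 35.6 to 45.4 CPM of *Tle4*. Values without these libraries were not computed for *Ctnnb1* and *Tle4*. *Nkd2*, the paralog of *Nkd1*, was at 60.6, 6.80, 6.98 and 146 CPM in *Lats1*-CKO tumors 27, 18, 14 and 21, against 7.37 to 8.98 CPM in WT-PyMT tumors. It was at 78.3 CPM in the library labelled *Lats2*-CKO 1 and at 3.14, 4.35 and 10.5 CPM in *Lats2*-CKO tumors 7, 16 and 8. Their WT-PyMT littermate tumors 14, 2 and 1 had 2.20, 6.39 and 5.74 CPM. The log2 fold change of *Nkd2* was 2.76 (SE 1.13) in *Lats1*-CKO and 2.33 (SE 1.22) in *Lats2*-CKO, neither past the test. A value without the library labelled *Lats2*-CKO 1 was not computed for *Nkd2*. *Wisp1*, a proposed target gene, was at 6.69 to 22.3 CPM in *Lats1*-CKO and 5.04 to 6.62 CPM in WT-PyMT tumors (log2 fold change 1.11, SE 0.41, edgeR adjusted p = 0.413), with 0.66 (SE 0.55) in *Lats2*-CKO. *Fgf20* had 1 to 4 counts in *Lats1*-CKO libraries and 0 in WT-PyMT libraries. In *Lats2*-CKO, *Kremen2* had 1 to 5 counts a library, against 7 to 16 counts in WT-PyMT libraries, and the R-spondin *Rspo1* had a log2 fold change of -1.37 (SE 0.98). *Rspo4* had 0 to 2 counts in *Lats2*-CKO libraries and 0 to 4 counts in WT-PyMT libraries.

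**Figure D5:**
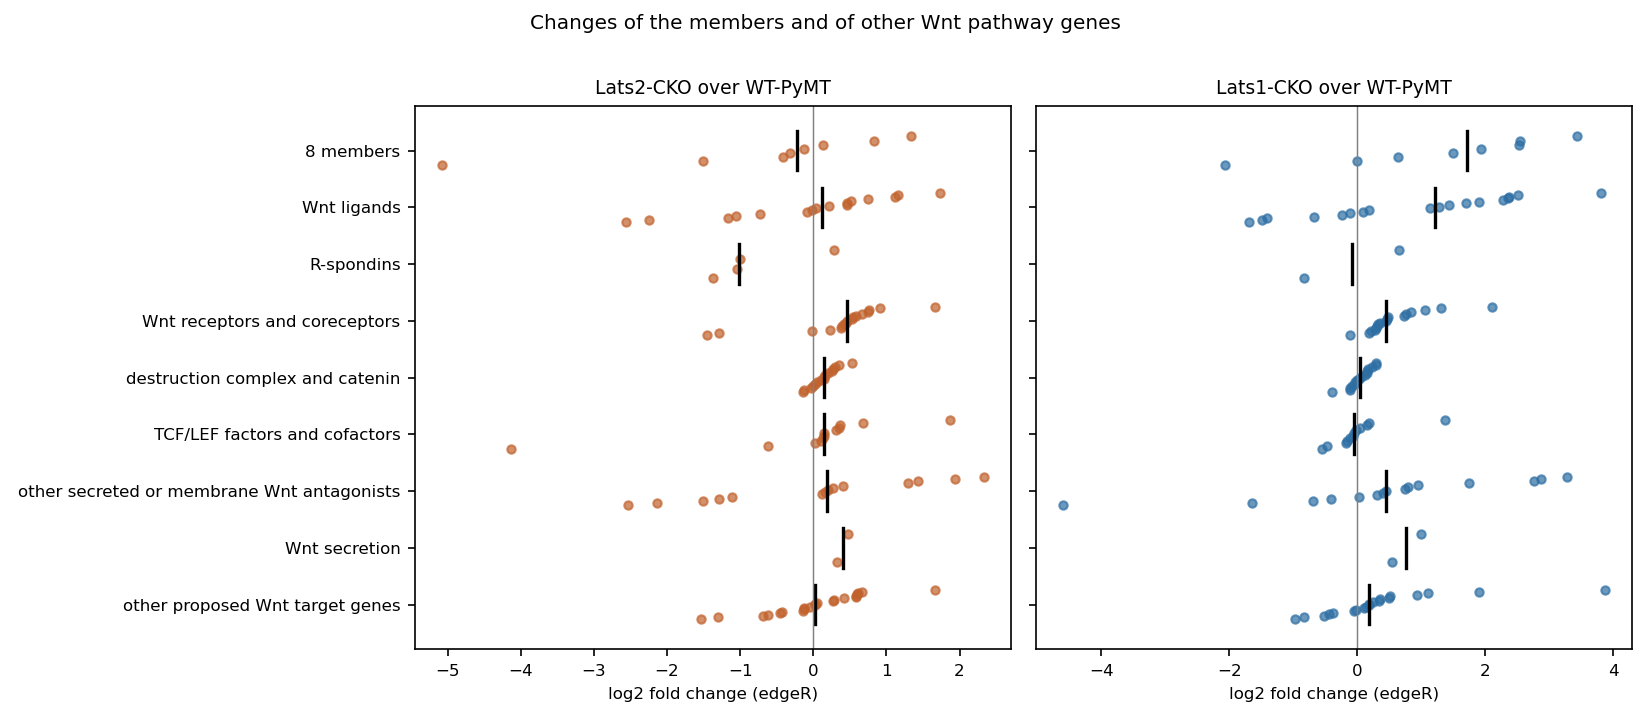
log2 fold change from edgeR (horizontal axis) of 8 members, Notum and Sp5 being left out, and of the genes of 8 other Wnt pathway lists in Lats2-CKO (left) and Lats1-CKO (right) over WT-PyMT tumors; each dot is a gene and the black line the list's median, and Shisa3, Dkk4 and Fgf20 are left out where a group had 0 counts. Dots of most lists lie on both sides of 0, and 16 of 17 receptors lie to its right in Lats1-CKO, where the median over all genes was -0.0029.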

How the data were processed

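Poly(A) RNA of whole tumors was sequenced, and the authors used STAR on the mouse build mm10 (its version is not given in the sources used here) and deposited raw counts per RefSeq gene, 1 table per experiment. Columns of the authors' own comparisons (fold changes and p-values) were not used. Raw counts were tested per experiment with edgeR 4.0.16 (TMM, quasi-likelihood test, Benjamini-Hochberg threshold 0.05) in R 4.3.3, and with DESeq2 1.42.0 as an alternative. The scripts were tested on simulated data. The difference between genotypes and carcinoma over adenoma used 1 fit of 14 libraries. CPM use TMM-scaled totals, log2 CPM a prior count of 2, and SE is the fold change divided by the square root of F. Gene positions and exon lengths came from GENCODE M21. The lowest row sum was 6 counts, so genes with fewer counts were not analysed here.

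All members were named with their values, and other pathway genes where they passed the test or had 1 of the 2 smallest p-values of their list. The members and lists were chosen with earlier results of these data known. P-values measure only the spread between these tumors. These came from different mice in the *Lats2* experiment, and the sources used here do not say so for the *Lats1* experiment.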

Additional observations from a re-analysis of the deposited data

Results flagged for a closer look

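In 10 of the 19 sets of 4 CKO libraries tested, 1 library stood apart from the other 3 by Dixon's ratio of gap to range, a deviation which chance gives in about 1 set in 20 of independent, normally distributed values. These sets are skewed CPM values from the same 8 libraries, so the 10 cannot be read against that share. In log2 CPM 4 of the 10 passed, *Wif1* in *Lats2*-CKO 1 and *Notum*, *Sp5* and *Dkk2* in *Lats1*-CKO 21. The ratio of 1 for *Sp5* is set by 3 libraries at 0 counts. No explanation was tested.

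The adenosquamous carcinoma *Lats1*-CKO 21 stood apart for *Axin2* at 167.4 CPM (ratio 0.982), *Nkd1* at 33.94 CPM (0.961), *Notum* at 35.75 CPM (0.997), *Sp5* at 3.25 CPM (1), *Znrf3* at 95.74 CPM (0.86) and *Dkk2* at 16.4 CPM (0.972). The library labelled *Lats2*-CKO 1 stood apart for *Lgr5* at 11.75 CPM (0.929), *Wif1* at 31.37 CPM (0.95) and *Lef1* at 7.369 CPM (0.935). *Lats2*-CKO 8 stood apart for *Notum* at 0.6013 CPM (0.893), on 18 counts.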

How the results depend on the processing

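Of 339 alternative values of single genes 304 kept their direction and side of the threshold, 33 reversed and 2 (*Lgr5* and *Wif1* in *Lats1*-CKO by DESeq2) passed the threshold. The number of the 10 genes called stayed at 0 under every alternative run except DESeq2 in *Lats1*-CKO, which called 2. The causes of the changes were not tested.

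DESeq2 called 138 genes in *Lats2*-CKO, 588 in *Lats1*-CKO, 16 for the difference and 44 for carcinoma over adenoma. The fit of all 14 libraries called 2 in *Lats2*-CKO and 1 in *Lats1*-CKO, and filterByExpr 7 in *Lats1*-CKO. With 1 library left out, 0 to 57 genes were called in *Lats2*-CKO (57 without WT-PyMT 1), 0 to 19 in *Lats1*-CKO (19 without *Lats1*-CKO 21, 0 without WT-PyMT 17 or 20, 1 without *Lats1*-CKO 27) and 1 to 5 for the difference (5 without WT-PyMT 1, 1 without WT-PyMT 17, 20 or 22).

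With 1 library left out, log2 fold changes in *Lats2*-CKO ran from -0.36 to 1.12 for *Lgr5*, -7.33 to 2.32 for *Lef1*, -0.60 to 0.24 for *Nkd1* and -0.28 to 0.51 for *Rnf43*. In *Lats1*-CKO they ran from -1.38 to 2.95 for *Axin2*, -3.14 to 4.26 for *Lef1*, -0.52 to 2.32 for *Nkd1*, -0.10 to 0.0798 for *Rnf43*, -0.0199 to 0.87 for *Znrf3* and -0.21 to 1.82 for *Dkk2*. In *Lats2*-CKO, adding histology to the fit gave -0.0087 for *Rnf43*, and adding the lymphocyte mean, *Rnf43* was at -0.0656 and *Lef1* at 1.92. In *Lats1*-CKO, *Rnf43* was at 0.00495 (DESeq2), 0.00499 (DESeq2 size factors), 0.00474 (filterByExpr) and 0.0174 (all 14 libraries), and *Lef1* at 0.51 (histology) and 3.48 (lymphocyte mean).

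Removals of several libraries were chosen after seeing the data. Without the library labelled *Lats2*-CKO 1 and WT-PyMT 14, values in *Lats2*-CKO were -0.57 for *Lgr5*, -0.20 for *Wif1*, 0.0862 for *Lef1* and -0.20 for *Rnf43*. Without *Lats1*-CKO 21 and WT-PyMT 22, values in *Lats1*-CKO were -0.96 for *Axin2*, 3.19 for *Lef1*, -0.40 for *Nkd1*, -0.0779 for *Znrf3* and -0.41 for *Dkk2*. Without all 4, the difference was -0.0944 for *Axin2*, with 1 gene called.

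The correlation with *Axin2* within the *Lats2* experiment was 0.177 for *Lgr5*, -0.001 for *Wif1*, 0.0103 for *Nkd1* and -0.222 for *Notum*. Within the *Lats1* experiment it was 0.961 for *Nkd1*, 0.358 for *Rnf43* and 0.900 for *Znrf3*. Without the 2 farthest libraries it was -0.0143 for *Wif1*, 0.454 for *Nkd1*, -0.151 for *Notum* and 0.488 for *Znrf3*.

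No paired analysis was possible because the sources used here do not give the litter of each tumor. The replicate numbers are not given as pairs. The groups compared share 1 of them in the *Lats2* experiment and 0 in the *Lats1* experiment. Outside *Lats1*-CKO 21, *Notum* had 0 to 18 counts and *Sp5* 0 to 1, so that changes of these genes among those libraries were not detectable at this depth. Tumor histology, tissue makeup and genotype were not balanced between groups.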
